A study of Mus musculus with 6 samples.

Results

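The 39 genes described here encode lysosomal hydrolases, the cofactors that some of them need, and proteins of the lysosomal membrane, out of 55263 annotated genes. They were taken as a named list, and each gene's value is the sum of its annotated transcripts. RNA came from bulk cultures of wild type mouse bone marrow-derived macrophages, which are macrophages grown from marrow progenitors. The control group held 2 libraries, the LPS group held 2 libraries of cells given lipopolysaccharide, a component of bacterial outer membranes that TLR4 senses, and the LPS+HACA group held 2 libraries of cells given LPS with a preparation labelled HACA. HACA is not spelled out in the labels, which give no dose, time, strain, sex or age, and the title of the series names a hyaluronic acid nanomedicine. Of the 39 genes, 36 had enough counts to be tested. Sgsh, the sulphamidase of heparan sulphate breakdown, Arsa, the sulphatase of sulphatide, and Acp5, the tartrate-resistant acid phosphatase, did not.

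Lysosomes break down proteins, glycans, nucleic acids and lipids at acid pH. Most of their soluble enzymes are made in the endoplasmic reticulum, tagged with mannose 6-phosphate in the Golgi and carried to the lysosome by receptors, while membrane proteins such as LAMP1 and LAMP2 line the limiting membrane and channels and carriers move ions and products across it. In macrophages the same compartment digests what the cell engulfs. Many lysosomal genes share a promoter motif with the core CACGTG, which is bound by the related factors TFEB, TFE3, MITF and TFEC.

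Promoters came from a RefSeq table of GRCm38.p6 that covers 250 bases before to 50 bases after each gene's start, and 37 of the 39 genes had an entry. The palindrome CACGTG stood in 11 of these 37 promoters (29.7%), against 7.15% of all 32851 promoters of the same length. The longer palindrome TCACGTGA, which contains the first, stood in 3 of them (8.11%), those of Cln3, Gla and Mcoln1, against 0.974% of all promoters. Both motifs read the same on either strand, and a match is a description of the letters only. The windows below are shown because 4 of the 5 belong to genes whose level changed and the other, Lamp1, holds 4 copies. Each runs 5′ to 3′ on the gene's strand and ends at or before the start site of the RefSeq table, and capitals mark CACGTG. They lie at chr8:3500428-3500499 (Mcoln1, plus strand), chr7:126583332-126583405 (Cln3, minus strand), chr11:101070001-101070046 (Naglu, plus strand), chr3:146150082-146150127 (Mcoln2, plus strand) and chr8:13159080-13159160 (Lamp1, plus strand).
Mcoln1: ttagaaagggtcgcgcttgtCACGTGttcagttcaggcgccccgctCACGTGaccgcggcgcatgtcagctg
Cln3: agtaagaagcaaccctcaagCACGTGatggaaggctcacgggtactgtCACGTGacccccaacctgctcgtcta
Naglu: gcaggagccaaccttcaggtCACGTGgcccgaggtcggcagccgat
Mcoln2: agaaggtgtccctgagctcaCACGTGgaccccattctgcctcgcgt
Lamp1: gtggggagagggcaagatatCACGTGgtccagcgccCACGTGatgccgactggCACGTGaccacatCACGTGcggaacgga
In Mcoln1 the copies begin 71 and 45 bases before the start, in Cln3 149 and 121 bases before it, in Naglu 73 and in Mcoln2 72. The 4 copies of Lamp1 lie between 61 and 15 bases before the start. All these starts are those of the RefSeq table. The annotation used for the counts begins Mcoln1 at chr8:3500457 and Naglu at chr11:101070012, inside their windows. It places Cln3 at chr7:126571207-126585817 and Mcoln2 at chr3:146149833-146195513, so those 2 windows lie wholly within the gene. The windows are therefore not all before the start of the transcripts counted. Mcoln1 and Naglu were called lower with LPS and Cln3 and Mcoln2 higher, where 14.3% of all genes were lower and 15.9% higher. Of the other genes among the 11 with CACGTG, Gaa, Gla, Glb1, Lamp1 and Lgmn were not called, and Arsa and Sgsh were not tested.

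The libraries held 12529874 to 15379496 counts, and the 39 genes took 5.84% to 6.17% of the counts in control, 3.98% to 4.12% under LPS and 4.82% to 4.92% in LPS+HACA. Most of this was Lyz2, the macrophage lysozyme. Deposited counts belong to single transcripts, and reads that overlap several transcripts are mostly absent from them. The 39 genes were therefore measured over a median of 46.3% of their exonic bases, against 68.5% for genes with over 100 counts. Coverage was 3.50% for Psap, 1.43% for Sgsh, 9.86% for Arsa and 16.8% for Cd68. For such genes a switch between transcripts and a change in the gene's total cannot be told apart. Macrophage markers summed to 3005 to 9193 CPM (counts scaled to library size with TMM factors) in the 6 libraries, with Csf1r at 19.6 to 54.4. Summed stromal markers were 47.2, 32.4 and 49.7 CPM in replicate 1 of control, LPS and LPS+HACA and 1.72, 2.601 and 1.35 in replicate 2. Neutrophil markers were at 7.90, 14.3 and 5.04 CPM in replicate 1 of the same groups and 41.2, 65.4 and 37.8 in replicate 2. Osteoclast markers were at 46.8, 39.8 and 46.4 in replicate 1 and 78.6, 96.2 and 81.1 in replicate 2. Both were thus higher in replicate 2 of every group. Ly6g, S100a9, Calcr and Oscar were at 0, and T and NK cell markers were below 0.60 in each library. Of 9 tested macrophage markers 1 was called higher and 2 lower with LPS, where 15.9% and 14.3% of all genes were. With HACA against LPS 0 were higher and 1 was lower, where 5.74% and 7.67% of all genes were. Scaled by library totals, 1 was higher and 6 were lower with LPS, where 8.28% and 29.9% of all genes were. Dendritic cell and B cell markers also moved with the treatment. Dendritic cell markers summed to 9.10 and 10.5 CPM in the control libraries, 39.6 and 48.6 under LPS and 12.0 and 14.2 under LPS+HACA, with Cd209a at 0, and 2 of 5 tested were called higher with LPS and 2 lower with HACA. B and plasma cell markers summed to 12.0 and 13.6 CPM in the control libraries, 3.15 and 3.76 under LPS and 13.7 and 8.25 under LPS+HACA, with Cd79b at 0, and 1 of 2 tested was called lower with LPS and 1 higher with HACA. The B and plasma markers were thus lowest under LPS, as the genes that fell with LPS are below, and the part of these markers in the results was not tested.

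Levels can be compared between genes only per length, and the deposited FPKM values summed per gene give that order. Lyz2 stood highest in control at 29660 ± 1372 FPKM (SD, n = 2). Lamp1, the most abundant membrane glycoprotein of the lysosome, followed at 1174 ± 83.4 and Gpnmb, a transmembrane glycoprotein of macrophages and melanosomes, at 688 ± 134. Hexa, the alpha subunit of beta-hexosaminidase, and Laptm5, a lysosomal membrane protein of blood cells, came next at 674 ± 61.4 and 646 ± 45.1 FPKM. These 3 neighbours did not differ beyond their spread. Man2b1, the lysosomal alpha-mannosidase, stood at 335 ± 26.3, Lamp2 at 179 ± 29.5, and Scpep1, a serine carboxypeptidase, at 174 ± 27.6, the last pair again within their spread. Gm2a, the GM2 activator, had 126 ± 3.12 FPKM and Npc2, the soluble cholesterol carrier, 98.1 ± 8.88. Npc1, the membrane protein that takes cholesterol from NPC2, had 79.4 ± 1.08. All the other genes were below 75 FPKM in control, and among tested genes Ppt1, Cd68, Glb1, Gla and Cd63 were the lowest at 3.29 to 5.33 FPKM. Psap ranked 21 by FPKM, but its FPKM divides counts from a few bases by whole transcript lengths. It ranked 5 per kilobase of the bases held by 1 transcript alone, which number only 96 in Psap. A read can reach past so few bases, so that value can overstate its level, and its rank is uncertain. Cd68 and Glb1 ranked 33 and 34 by FPKM but 19 and 24 per kilobase of such bases, so their low place is uncertain too. For Cd63, 97.4% of the counts lay on transcripts annotated as retained introns. Its coding transcripts held 15 counts in all, so its low FPKM does not show a low coding level.

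**Figure D1:**
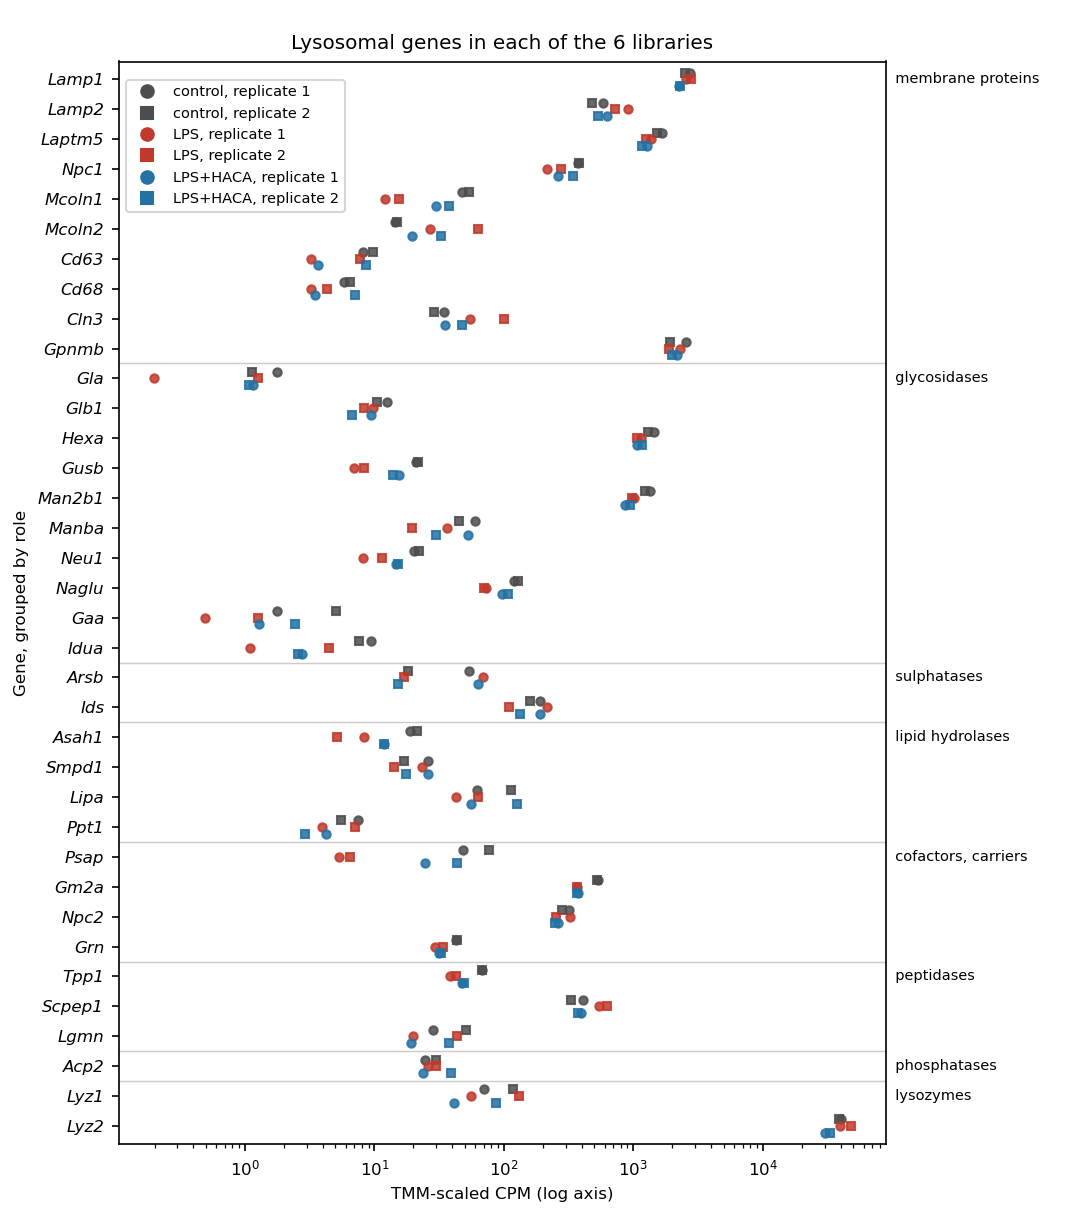
TMM-scaled CPM of the 36 tested genes on a log axis, one row a gene, with colour for the group and circles or squares for replicates 1 and 2. Lyz2 is the highest row and Gla one of the lowest. The red LPS points of Psap, Mcoln1 and Gusb lie left of the other groups, and circles and squares of Arsb lie apart in every group.

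LPS was compared with control first. Psap, which encodes the precursor of the saposins, the cofactors of sphingolipid hydrolases, fell the most, and Mcoln1, the TRPML1 cation channel of the lysosomal membrane, and the hydrolases Asah1, Gusb, Neu1, Naglu and Tpp1 also fell. The channel Mcoln2, the membrane protein Cln3 and the peptidase Scpep1 rose. Differences are log2 fold changes ± SE from edgeR's quasi-likelihood test over all 17113 tested genes, called at a Benjamini-Hochberg adjusted p under 0.05. Of the 36 tested genes 7 were lower, where 14.3% of all genes were, and 3 were higher, where 15.9% of all genes were. The share of lower calls, 19.4%, is near that background. The median log2 fold change of the 36 genes was -0.36, against -0.05 over all genes, and 28 of the 36 were below 0. In bulk libraries fewer cells of a type and less RNA per cell cannot be told apart.

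Among the membrane proteins, Mcoln1 had 47.8 and 54.2 CPM in the control libraries, 12.0 and 15.6 under LPS and 29.9 and 37.5 under LPS+HACA. The 3 groups did not overlap, with LPS lowest and LPS+HACA between. Mcoln1 fell by 1.88 ± 0.26 with LPS (adjusted p = 0.00166). Of its counts, 97.4% lay on transcripts annotated as retained introns, and on protein-coding transcripts alone it stood at -0.42 ± 0.61 (adjusted p = 0.652). Those coding transcripts held only 76 counts in all libraries together. Their level was therefore hardly measured, here and in the comparison with HACA below, and is not shown to be unchanged. Mcoln2, the related TRPML2 channel of immune cells, had 14.3 and 15.0 CPM in the control libraries, 27.1 and 63.4 under LPS and 19.4 and 32.7 under LPS+HACA. Both LPS libraries lay above control, with replicate 2 far above replicate 1. It rose by 1.63 ± 0.43 (adjusted p = 0.0236), and without LPS replicate 2 it stood at 0.89 (adjusted p = 0.0801).

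Cln3, the membrane protein mutated in juvenile Batten disease, had 34.3 and 29.1 CPM in the control libraries, 54.8 and 100 under LPS and 34.8 and 47.2 under LPS+HACA. Replicate 2 of LPS was again the highest library, and the control and LPS groups did not overlap. Cln3 rose by 1.29 ± 0.33 (adjusted p = 0.0207), and without LPS replicate 2 it stood at 0.79 (adjusted p = 0.0611). It shares 442 exonic bases with Apobr on the opposite strand, and since strand-aware counting is not stated, reads of the pair cannot be separated there.

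The main structural membrane proteins were not called. Lamp1 had 2738 and 2524 CPM in the control libraries, 2570 and 2793 under LPS and 2257 and 2300 under LPS+HACA. Its LPS libraries overlapped control, at 0.03 ± 0.18 (adjusted p = 0.927). Lamp2 had 581 and 479 CPM in the control libraries, 903 and 716 under LPS and 631 and 538 under LPS+HACA. Both LPS libraries lay above the other groups, and the difference of 0.61 ± 0.22 from control missed the threshold (adjusted p = 0.0675). Npc1 had 373 and 379 CPM in the control libraries, 217 and 276 under LPS and 260 and 345 under LPS+HACA, with LPS lowest against control at -0.61 ± 0.23 (adjusted p = 0.0779). The endosomal tetraspanin Cd63 was measured almost wholly on retained-intron transcripts, at 8.16 and 9.72 CPM in the control libraries, 3.25 and 7.71 under LPS and 3.64 and 8.65 under LPS+HACA, and its LPS libraries lay below control with an adjusted p of 0.335. Cd68, the macrophage scavenger protein, had 5.83 and 6.48 CPM in the control libraries, 3.25 and 4.34 under LPS and 3.46 and 7.03 under LPS+HACA, with an adjusted p of 0.233. Laptm5 and Gpnmb were at -0.27 and -0.10.

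All 10 glycosidases, enzymes that remove sugars from glycans and glycolipids, had negative fold changes with LPS, from -1.94 to -0.31 with a median of -0.94, and 3 of the 10 were called lower, against 14.3% of all genes and a median of -0.05 over all genes. Scaled by library totals, 9 of the 10 were lower, where 29.9% of all genes were. Gusb, the beta-glucuronidase, had 21.1 and 21.6 CPM in the control libraries, 6.90 and 8.28 under LPS and 15.5 and 14.0 under LPS+HACA. The groups did not overlap and LPS was lowest. Gusb fell by 1.49 ± 0.25 with LPS (adjusted p = 0.00405). Neu1, the lysosomal sialidase, had 20.4 and 22.1 CPM in the control libraries, 8.18 and 11.5 under LPS and 14.7 and 15.2 under LPS+HACA, and fell by 1.11 ± 0.27 (adjusted p = 0.0167). Every count of Neu1 lay on retained-intron transcripts, so its coding transcripts were not measured. Naglu, which cleaves N-acetylglucosamine from heparan sulphate, had 120 and 128 CPM in the control libraries, 73.0 and 69.8 under LPS and 97.5 and 108 under LPS+HACA. Its 3 groups did not overlap, and it fell by 0.80 ± 0.20 (adjusted p = 0.0198), with 99.4% of counts on coding transcripts.

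The other 7 glycosidases did not pass. Gaa, the acid alpha-glucosidase, and Idua, the alpha-iduronidase, had few counts, with differences of -1.94 ± 0.70 and -1.61 ± 0.56 (adjusted p = 0.0698 and 0.0605), and 81.7% of Idua counts lay on retained introns. Hexa and Man2b1, the most abundant of the group, stood at -0.31 ± 0.18 and -0.37 ± 0.18. Manba, Gla and Glb1 stood at -0.91, -0.98 and -0.36.

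Of the 4 lipid hydrolases only Asah1, the acid ceramidase, was called. It had 18.8 and 21.4 CPM in the control libraries, 8.37 and 5.11 under LPS and 11.8 and 11.8 under LPS+HACA. LPS was lowest with no overlap, and Asah1 fell by 1.58 ± 0.31 (adjusted p = 0.00708). Its coding transcripts, with 55.8% of its counts, fell by 1.22 (adjusted p = 0.0246), and without control replicate 2 the adjusted p of the gene was 0.0629. Smpd1, the acid sphingomyelinase, Lipa, the acid lipase, and Ppt1, a thioesterase that removes palmitate, stood at -0.19, -0.73 and -0.24, with adjusted p values from 0.256 to 0.721.

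Psap had 48.2 and 76.9 CPM in the control libraries, 5.32 and 6.45 under LPS and 24.4 and 43.6 under LPS+HACA. LPS was lowest in both replicates, every control library lay above every LPS+HACA library, and no groups overlapped. With LPS it fell by 3.41 ± 0.39 (adjusted p = 0.000796). These counts came from 3 coding transcripts on chromosome 10 of GRCm38, whose own bases number 71, 9 and 9. The 71 bases lie at chr10:60284461-60284531, with 31 in coding sequence and 40 in UTR, and carried 736 counts, while the transcripts with 9 bases of their own carried 876 and 1487. Gm2a, measured over 100% of its exonic bases, stood at -0.53 ± 0.18 (adjusted p = 0.0603), with 532 and 526 CPM in control and 365 and 369 in LPS. In the fit on coding transcripts alone, Gm2a was at -0.64 (adjusted p = 0.0363), although all its counts lie on 1 coding transcript and were the same in both fits, so that only the set of genes and the scaling differed. Npc2 had 320 and 282 CPM in the control libraries, 326 and 253 under LPS and 260 and 247 under LPS+HACA, so control and LPS overlapped. Grn, the precursor of progranulin and the granulins, had 42.4 and 43.2 CPM in the control libraries, 29.4 and 34.0 under LPS and 31.6 and 32.7 under LPS+HACA, at -0.43 ± 0.22 with LPS (adjusted p = 0.166).

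The peptidases moved apart. Tpp1, a tripeptidyl peptidase, had 68.0 and 67.4 CPM in the control libraries, 38.5 and 42.3 under LPS and 47.1 and 49.2 under LPS+HACA. It fell by 0.74 ± 0.21 (adjusted p = 0.0288), and on coding transcripts alone it stood at -0.45 (adjusted p = 0.126). Scpep1 had 406 and 332 CPM in the control libraries, 541 and 623 under LPS and 392.3 and 376 under LPS+HACA. LPS was highest without overlap, and Scpep1 rose by 0.66 ± 0.20 (adjusted p = 0.0421). Lgmn, the asparaginyl endopeptidase, had higher values in replicate 2 of every group and stood at -0.33 ± 0.49.

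Acp2, the lysosomal acid phosphatase, stood at 0.03 ± 0.29, with 84.1% of its counts on retained introns. Lyz2 had 40430 and 38740 CPM in the control libraries, 39300 and 47790 under LPS and 30360 and 32900 under LPS+HACA, and control and LPS overlapped, at 0.14 ± 0.19 (adjusted p = 0.628). Lyz1, its neighbour gene, had 69.8 and 119 CPM in the control libraries, 56.0 and 131 under LPS and 41.0 and 86.5 under LPS+HACA, higher in replicate 2 of each group. The pair share 16.1% of Lyz1's windows of 50 bases, so Lyz1 is uncertain beside its far more abundant copy. Neutrophil and osteoclast markers, above, were higher in the same replicate 2 libraries, and their part in the Lyz1 and Lgmn values was not tested.

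**Figure D2:**
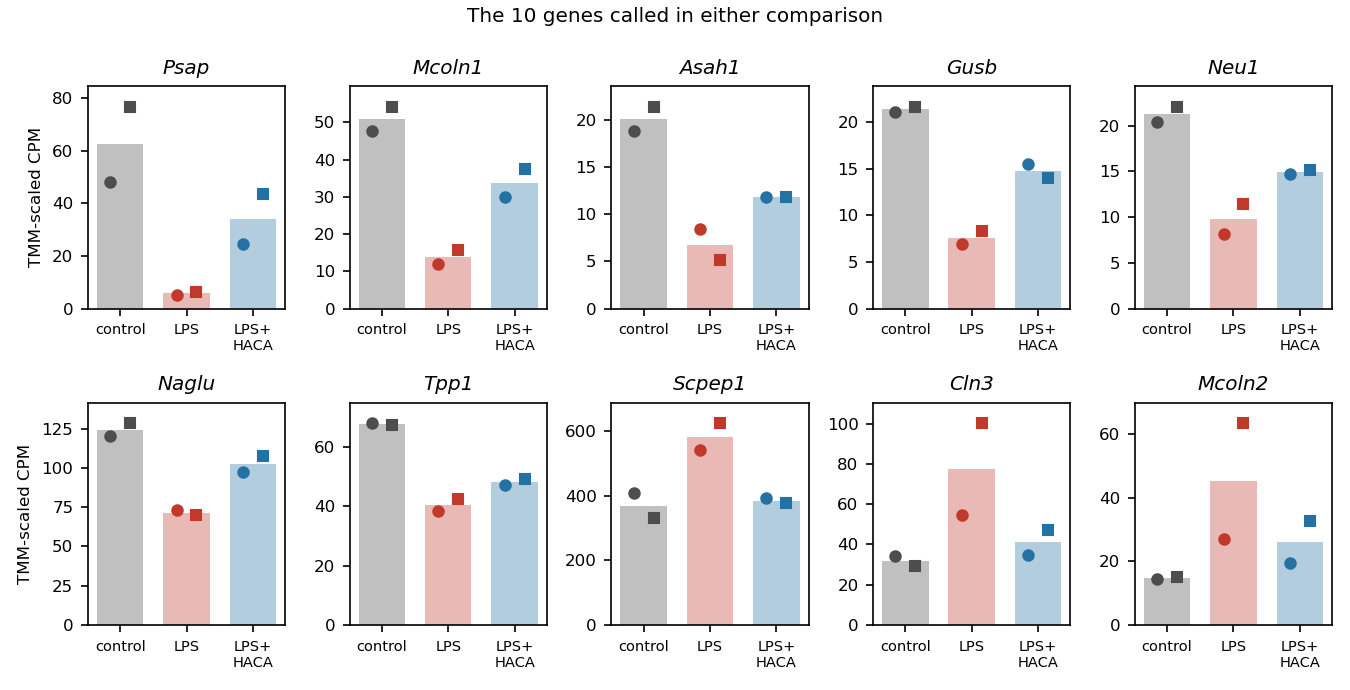
TMM-scaled CPM of the 10 genes called in either comparison, with bars at the mean of 2 libraries and circles and squares for replicates 1 and 2. Psap falls from 48.2 and 76.9 CPM in control to 5.32 and 6.45 in LPS, and the 7 genes that fell with LPS have their LPS+HACA libraries between the other groups. These 7 were selected by their low LPS libraries, and no share of all genes was counted for this order.

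The sulphatases Ids, which removes sulphate from iduronate, and Arsb, which does so from N-acetylgalactosamine, were at -0.11 ± 0.34 and 0.25 ± 1.08. Arsb had 54.0 and 18.1 CPM in the control libraries, 68.8 and 17.1 under LPS and 63.5 and 15.1 under LPS+HACA. Replicate 1 was therefore higher than replicate 2 in every group, while the groups overlapped. Stromal markers, above, were high in the same replicate 1 libraries, and their part in the Arsb values was not tested.

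Calls depended on single libraries as well. Psap and Gusb kept their call with LPS with any 1 library left out (highest adjusted p 0.00941 and 0.0424). Without control replicate 1 the adjusted p was 0.0954 for Naglu, 0.0815 for Neu1 and 0.146 for Tpp1, and without control replicate 2 it was 0.141, 0.116 and 0.151. Mcoln2, Cln3 and Scpep1 had adjusted p values of 0.136, 0.0974 and 0.123 without control replicate 1, and 0.125, 0.143 and 0.273 without control replicate 2. In these fits 0 of the genes were higher, where 6.59% and 6.78% of all genes were, and 4 and 3 were lower, where 5.80% and 5.04% of all genes were. Without LPS replicate 2, Scpep1 was at an adjusted p of 0.0868, and 1 gene was higher and 10 were lower, where 13.1% and 11.7% of all genes were.

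LPS+HACA was then compared with LPS, which asks what HACA added to LPS. Psap, Mcoln1 and Gusb were higher with HACA and 0 of the 36 genes were called lower. Psap rose by 2.53 ± 0.38 (adjusted p = 0.00808), Mcoln1 by 1.29 ± 0.25 (adjusted p = 0.0184) and Gusb by 0.96 ± 0.25 (adjusted p = 0.0430), each from the library values above and without overlap. The 3 higher genes compare with 5.74% of all genes called higher and 7.67% called lower by the same edgeR test. The median of the 36 genes was 0.02, against 0.06 over all genes. For lower genes, 3 of the 36 passed at an unadjusted p under 0.05, but no share of all genes was counted at that threshold. DESeq2 called 1 (Scpep1) and limma called 0, where they called 10.5% and 7.3% of all genes lower. The 2 LPS libraries enter this comparison and the one with control, so a gene that is low in them is moved the opposite way in both, and the values are set side by side for that reason alone.

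Other genes that fell with LPS had their LPS+HACA libraries between LPS and control, without a call against LPS. They were selected by their low LPS libraries, and no share of all genes was counted for this order. Asah1 stood at 0.81 ± 0.30 (adjusted p = 0.115), Neu1 at 0.60 ± 0.27 (0.168), Naglu at 0.52 ± 0.20 (0.122) and Tpp1 at 0.25 ± 0.21 (0.445), all as log2 differences of LPS+HACA from LPS. The 3 genes that rose with LPS stood below LPS, Cln3 at -0.92 ± 0.32 (adjusted p = 0.0995), Mcoln2 at -0.80 ± 0.42 (0.236) and Scpep1 at -0.60 ± 0.20 (0.0884). The abundant genes were not called, with Lamp1 at -0.23 ± 0.18, Lamp2 at -0.47 ± 0.22 and Lyz2 at -0.46 ± 0.19.

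Psap kept its call with any 1 library left out (adjusted p at most 0.0336). Mcoln1 was at adjusted p values of 0.0529 and 0.0562 without control replicates 1 and 2 and 0.0653 and 0.111 without LPS+HACA replicates 1 and 2, and on coding transcripts alone at 0.17 (adjusted p = 0.895). With single libraries left out, Gusb was called only without LPS replicate 2 (adjusted p = 0.0442), and its adjusted p otherwise lay between 0.0702 and 0.208. Without LPS replicate 1 the number of lower genes was 3, where 9.73% of all genes were lower.

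Against control, LPS+HACA had 0 higher and 0 lower among the 36 genes by edgeR, where 0.894% and 0.257% of all genes were called higher and lower. At an unadjusted p under 0.05 these counts were 0 and 7, but no share of all genes was counted at that threshold. DESeq2 called 0 in both directions, where it called 2.72% of all genes higher and 1.17% lower. Limma also called 0, where it called 0.479% of all genes higher and 0.216% lower. With the replicate number as a block, Psap was called lower, at -0.90 (adjusted p = 0.0314), where 1.79% of all genes were lower. Without the block Psap stood at -0.88 ± 0.35 (adjusted p = 0.367), Mcoln1 at -0.60 ± 0.25 (0.40) and Gusb at -0.53 ± 0.24 (0.456). The median was -0.36, against 0.00 over all genes, with 28 of the 36 below 0, and Idua had the lowest value, -1.67 ± 0.55 (adjusted p = 0.247).

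**Figure D3:**
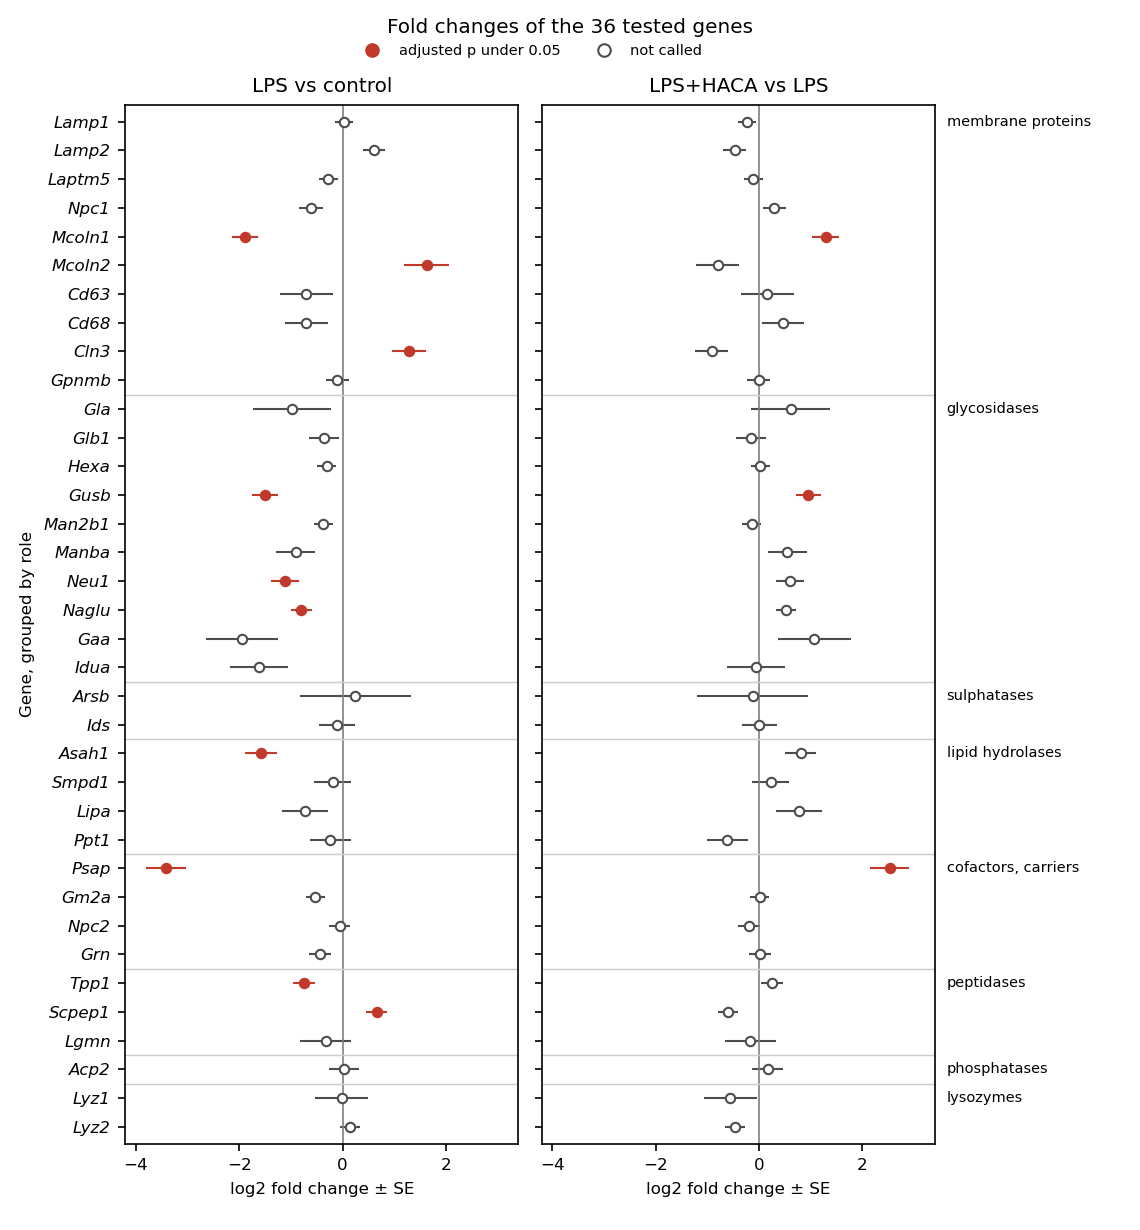
Log2 fold changes with SE bars for the 36 tested genes, LPS against control on the left and LPS+HACA against LPS on the right, filled red at an edgeR adjusted p under 0.05. On the left 7 red points lie below 0 and 3 above, and on the right Psap, Mcoln1 and Gusb lie above 0.

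Scaling by library totals in place of TMM shifted every gene, since the median of all genes then lay at -0.69 for LPS against control and at 0.70 for LPS+HACA against LPS. With that scaling 22 of the 36 genes were lower with LPS and 0 higher, where 29.9% and 8.28% of all genes were, and their median was -1.02. With HACA 11 were higher and 0 lower, where 20.5% and 3.05% of all genes were, with a median of 0.66. Lamp1 stood at -0.62 and Lyz2 at -0.52, so both turned from slightly positive to lower with LPS, and Scpep1 at 0.01 was no longer higher. Psap fell in both scalings, at -3.41 and -4.06.

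On protein-coding transcripts alone, 31 of the genes could be tested. With LPS 1 was higher (Cln3) and 5 were lower (Psap, Gusb, Asah1, Naglu and Gm2a), where 15.9% and 13.7% of the 9089 genes were higher and lower. With HACA against LPS, Psap was higher and 0 genes were lower, where the shares of all genes were 4.48% and 7.02%. This set was chosen after the values above had been seen. All counts of Psap and Gm2a lie on coding transcripts, so for these genes the fit used the same counts and adds no separate support.

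The retained-intron transcripts, whose own bases lie outside coding sequence and UTR of the coding transcripts, were then set against coding transcripts of the same gene in the same library. Such a ratio does not depend on how libraries are scaled. Enough counts of both kinds were present for 16 of the 39 genes and 3782 genes in all. With LPS the ratio fell in 6 of the 16 (Gpnmb, Man2b1, Manba, Lgmn, Tpp1 and Npc1), where it fell in 2.67% of all genes, and it rose in Npc2, where it rose in 0.529% of all. The median of the 16 was -0.97, against -0.29 over all 3782 genes, of which 67.8% were below 0.

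Gpnmb had 4.87 and 6.50 retained-intron counts per 100 coding counts in the control libraries, 0.41 and 0.83 under LPS and 2.74 and 4.95 under LPS+HACA. LPS lay far below both other groups, and its ratio fell by 3.25 ± 0.36 (adjusted p = 0.000199) while its coding transcripts stood at -0.14 ± 0.22 (adjusted p = 0.678). The bases lie within chr6:49036546-49038377 (Gpnmb-205) and chr6:49048102-49048351 (Gpnmb-204) of GRCm38. Man2b1 had 3.04 and 3.42 per 100 in the control libraries, 0.25 and 0.49 under LPS and 1.48 and 1.47 under LPS+HACA. Its ratio fell by 3.15 ± 0.31 (adjusted p = 6.7e-05), with coding transcripts at -0.44 ± 0.19 (adjusted p = 0.124), and the bases lie within chr8:85083270-85085354 (Man2b1-204) and chr8:85086090-85089750 (Man2b1-206).

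Tpp1 had 48.1 and 48.8 retained-intron counts per 100 coding counts in the control libraries, 6.54 and 16.8 under LPS and 18.7 and 32.4 under LPS+HACA, and its ratio fell by 2.11 ± 0.41 with LPS (adjusted p = 0.0133). Manba, the beta-mannosidase, had 6.30 and 8.73 in the control libraries, 0 and 2.02 under LPS and 3.49 and 5.70 under LPS+HACA (adjusted p = 0.0298), from 0 and 4 retained-intron counts in the LPS libraries. Lgmn fell by 2.52 ± 0.55 (adjusted p = 0.0226), from 10.2 and 8.70 per 100 in control to 2.54 and 1.12 in LPS. For Npc1 the fall was 1.19 ± 0.27 (adjusted p = 0.0250). Npc2 went the other way, from 7.38 and 8.68 per 100 in control to 15.9 and 16.3 in LPS, and rose by 1.004 ± 0.25 (adjusted p = 0.0415).

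With HACA against LPS the ratio rose in Gpnmb, by 2.64 ± 0.36 (adjusted p = 0.00486), and in Man2b1, by 2.03 ± 0.31 (adjusted p = 0.0120), where 0.159% of all genes rose and 0.0264% fell. It fell in 0 of the 16 by edgeR at an adjusted p under 0.05, while 2 of the 16 had a value below 0, the lowest at -0.74. No count at an unadjusted p was taken and no other tool was run on this ratio. Without LPS replicate 1 the adjusted p was 0.0682 for Gpnmb and 0.0893 for Man2b1. With LPS against control, Gpnmb and Man2b1 kept their call with any 1 library left out, and they were the only 2 of the 6 that did so without control replicate 1, control replicate 2 or LPS replicate 1. Without those libraries the adjusted p ranged from 0.0828 to 0.247 for Npc1, Manba and Tpp1 and from 0.0553 to 0.147 for Lgmn, which also missed without LPS replicate 2. The call of Npc2 was lost when any of the 4 control and LPS libraries was left out (adjusted p from 0.0710 to 0.213). Over whole libraries the sums gave 8.77 and 10.1 retained-intron counts per 100 coding counts in the control libraries, 7.65 and 7.81 under LPS and 9.26 and 11.1 under LPS+HACA, and their part in these ratios was not tested.

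**Figure D4:**
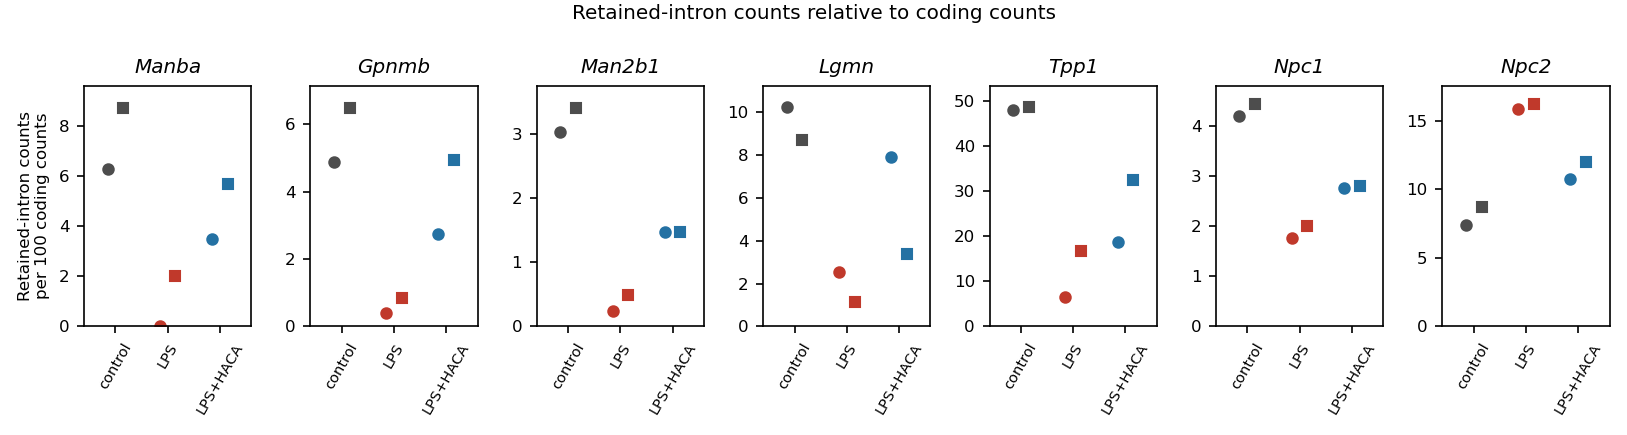
Retained-intron counts per 100 coding counts in each library for the 7 genes whose ratio changed with LPS, with circles and squares for replicates 1 and 2. Gpnmb lies at 0.41 and 0.83 in LPS and at 4.87 and 6.50 in control, and in Npc2 the LPS libraries are highest.

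Other genes of the lysosome were described by 6 lists named for their function. Their counts stand beside the shares of all genes, which were 14.3% lower and 15.9% higher with LPS and 7.67% lower and 5.74% higher with HACA. With library totals the shares were 29.9% lower and 8.28% higher with LPS and 3.05% lower and 20.5% higher with HACA. Counts at an unadjusted p have no such share beside them. Of 12 other hydrolases 5 fell with LPS, among them Pla2g15, the lysosomal phospholipase A2, at -3.66 ± 0.61 (adjusted p = 0.00373) and Aga, the aspartylglucosaminidase, at -2.46 ± 0.58 (adjusted p = 0.0157), and 0 rose by edgeR, at an unadjusted p under 0.05, by DESeq2 or by limma. Pla2g15 had 2 counts in each LPS library. With HACA against LPS 2 of the 12 rose, Pla2g15 by 2.62 ± 0.63 (adjusted p = 0.0330) and Dnase2a, the acid deoxyribonuclease, by 1.62 ± 0.32 (adjusted p = 0.0179). The median of this list was -0.52 with LPS and 0.30 with HACA, against -0.05 and 0.06 over all genes. By library totals 9 of the 12 were lower with LPS, where 29.9% of all genes were, and 5 were higher with HACA, where 20.5% were.

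Of 16 tested other membrane proteins 6 fell and 2 rose with LPS, where 14.3% and 15.9% of all genes did, and by library totals 11 were lower and 0 higher. Ctns, the cystine transporter, fell by 2.39 ± 0.49 (adjusted p = 0.00903) and Tpcn1, a two-pore channel, by 2.34 ± 0.41 (adjusted p = 0.00464). Clcn7, the chloride and proton exchanger, rose by 1.01 ± 0.32 (adjusted p = 0.0479) and Mfsd1, a carrier, by 0.76 ± 0.23 (adjusted p = 0.0388), but scaled by library totals they stood at 0.33 and 0.10 and were not called. With HACA 3 of the 16 rose, led by Ctns at 1.99 ± 0.49 (adjusted p = 0.0365) and Tmem175, a potassium and proton channel, at 1.76 ± 0.34 (adjusted p = 0.0166).

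Among 12 tested cathepsins, the lysosomal proteases, 5 fell and 1 rose with LPS, where 14.3% and 15.9% of all genes did, and by library totals 6 were lower and 1 higher. Ctsa, the protective protein that holds NEU1 and GLB1 in a complex, had 45.2 and 59.4 CPM in the control libraries, 10.2 and 10.6 under LPS and 30.6 and 33.6 under LPS+HACA. It fell by 2.33 ± 0.25 with LPS (adjusted p = 0.000649) and rose by 1.62 ± 0.25 with HACA (adjusted p = 0.00845). Ctsc, the dipeptidyl peptidase that activates granule proteases, had 325 and 327 CPM in the control libraries, 1796 and 1314 under LPS and 535 and 559 under LPS+HACA. Its rise of 2.25 ± 0.22 (adjusted p = 0.00045) and its fall by 1.51 ± 0.22 with HACA (adjusted p = 0.00715) were both called in either scaling. Ctsf had 2 counts in LPS against 113 in control and 39 in LPS+HACA, a control to LPS ratio of 37.4 (95% exact interval 10.1 to 312, counting error only).

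The V-ATPase, the proton pump that acidifies the lysosome, had 1 of 18 genes higher with LPS (Atp6v1e1, 0.87 ± 0.25, adjusted p = 0.0319) and 1 lower (Atp6v1c1, which fell by 1.07 ± 0.28, adjusted p = 0.0217). Both counts, 1 of 18, lie below the shares of all genes. Scaled by library totals, 6 of the 18 were lower and Atp6v1e1 stood at 0.20 and was not called. With HACA 0 of the 18 were called by edgeR, DESeq2 or limma, and 4 were lower and 0 higher at an unadjusted p under 0.05. Of 12 tested genes for enzyme tagging and sorting, M6pr, a mannose 6-phosphate receptor, rose by 1.22 ± 0.23 (adjusted p = 0.00703), though at 0.59 by library totals it was not called. Sort1, the sorting receptor sortilin, fell by 2.59 ± 0.60 (adjusted p = 0.0142), Gga2, an adaptor at the Golgi, fell by 2.09 ± 0.52 (adjusted p = 0.0187), and 3 of the 12 fell in all. With HACA 0 of these 12 were called by any of the 3 tools, with 3 higher and 0 lower at an unadjusted p under 0.05.

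Among 14 tested regulators 3 rose and 3 fell with LPS, where 15.9% and 14.3% of all genes did, and by library totals 1 was higher and 8 were lower. Tfeb, a factor of the CACGTG motif, had 24.4 and 34.1 CPM in the control libraries, 2.96 and 7.61 under LPS and 25.8 and 29.9 under LPS+HACA. LPS was lowest, and LPS+HACA overlapped control. Tfeb fell by 2.47 ± 0.43 with LPS (adjusted p = 0.00474) and rose by 2.39 ± 0.43 with HACA (adjusted p = 0.0140). Tfec, its relative in myeloid cells, had 12.1 and 18.7 CPM in the control libraries, 156 and 107 under LPS and 26.5 and 42.8 under LPS+HACA, and the 3 groups did not overlap. It rose by 3.10 ± 0.36 with LPS (adjusted p = 0.000892) and fell by 1.92 ± 0.34 with HACA (adjusted p = 0.0136). Mitf rose by 1.40 ± 0.33 with LPS (adjusted p = 0.0156), but stood at 0.73 by library totals (adjusted p = 0.0867). Lamtor4, a part of the Ragulator complex on the lysosome, fell by 4.14 ± 0.63 (adjusted p = 0.00265) and rose by 2.66 ± 0.66 with HACA (adjusted p = 0.0365), from 1 and 4 counts in the LPS libraries.

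Against control, LPS+HACA had 0 calls in either direction in all 6 lists by edgeR, and limma also called 0. DESeq2 called 2 cathepsins and 1 other membrane protein lower, where it called 1.17% of all genes lower. At an unadjusted p under 0.05, 4 cathepsins were lower and 1 higher, 2 regulators were higher and 1 lower, 1 sorting gene was higher, 1 other membrane protein was lower, and hydrolases and V-ATPase genes had 0.

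**Figure D5:**
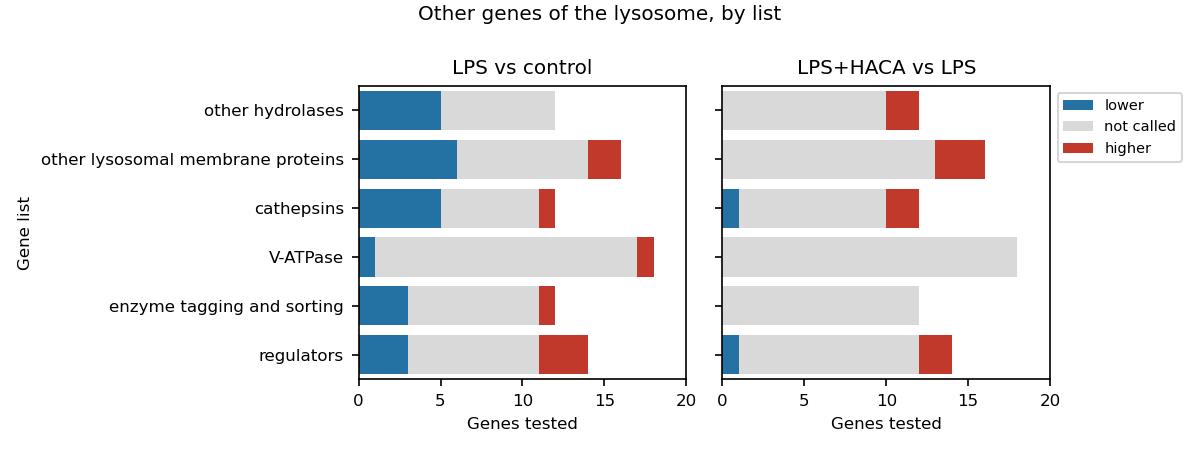
Number of tested genes in 6 lists of other lysosomal genes that were lower (blue), not called (grey) or higher (red), for LPS against control on the left and LPS+HACA against LPS on the right. With LPS 5 of 12 other hydrolases were lower and 0 higher, and with HACA 0 of 18 V-ATPase genes were called.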

How the data were processed

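RNA was extracted with TRIzol, selected on poly-A beads and made into TruSeq libraries, according to the labels' protocols. The authors deposited raw read counts per transcript, whole numbers per the file headers and values, and FPKM per transcript. The submitters' processing notes name STAR 2.5.4b, DESeq2 1.26.0, edgeR 3.28.1, limma, Trim Galore and CASAVA and the builds GRCm38 and GRCh38, without role or order, and the counting program is not given in the sources used here. Reads of several transcripts were mostly absent from the deposited counts.

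The planned unit was the gene, so transcript counts were summed with the GENCODE vM21 annotation of GRCm38. Of 142647 transcripts 141524 matched and fell into 55263 genes, while the 1123 others, with 0.115% of any library or less, were left out. Genes were filtered with filterByExpr, scaled with TMM factors and fitted in 1 edgeR 4.0.16 quasi-likelihood model of group over all 6 libraries (R 4.3.3, 3 residual degrees of freedom, robust dispersion). SE is the absolute log2 fold change over the square root of F. P-values were adjusted by Benjamini-Hochberg over 17113 genes. Retained-intron ratios were tested as an interaction of transcript kind and group, with the library as a block, in genes with at least 60 coding and 30 retained-intron counts. On simulated counts of LPS against control (16291 genes), the gene test found 3% of the 2-fold and 47% of the 4-fold changes, and on simulated counts of 3606 genes the ratio test found 2.04% and 21.1%. Alternatives were library totals, RLE scaling, DESeq2 1.42.0, limma 3.58.1 (voom), no filter, the most-counted transcript, a replicate block, protein-coding transcripts only, and each library left out. The protein-coding set and the ratio test were added after seeing the data.

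The genes and lists were chosen with earlier results of these data known. Library values are given for genes called in any comparison and for Lamp1, Lamp2, Cd63, Cd68, Npc1, Npc2, Psap, Grn, Lyz1 and Lyz2, and in each list at most 2 called genes per direction are named, those with the largest changes. Library values of other genes (Gm2a, Arsb, Ctsa, Ctsc, Tfeb, Tfec, retained-intron counts) were added after their values were seen. Nothing in the labels says whether replicates were separate cultures or animals. The p-values therefore reflect only the spread of these libraries, which may be technical.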

Additional observations from a re-analysis of the deposited data

How the results depend on the processing

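With 2 libraries a group and 3 residual degrees of freedom, the gene test found 3% of simulated 2-fold and 47% of simulated 4-fold changes of LPS against control (16291 genes), so a gene without a call is not shown to be unchanged. In LPS against control, 3 genes were higher, but 0 by library totals and 1 each on the most-counted or protein-coding transcripts. The 7 lower genes became 22 by library totals, where Lamp1 (-0.62) and Lyz2 (-0.52) reversed. For LPS+HACA against LPS, 3 were higher, but 11 by library totals and 1 on protein-coding transcripts, and 0 were lower, but 1 in DESeq2 and 1 without the filter on low counts. Against control LPS+HACA had 0 lower, but 1 without that filter. Leaving out 1 library gave 0 to 3 higher and 3 to 10 lower with LPS, 1 to 3 higher and 0 to 3 lower with HACA, and 0 to 1 lower for LPS+HACA against control. Retained-intron ratios gave 2 to 6 lower and 0 to 1 higher with LPS and 0 to 2 higher with HACA. With 1 library left out, the number of calls over all genes also rose or fell, in the gene test and in the ratio test. These ranges therefore do not show a change in the listed genes apart from that in all genes. The cause of the changes between settings was not tested.

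Same-numbered libraries deviated together across genes (r = 0.308, 0.509 and 0.498 for the 3 pairs of groups), but only 2 numbers exist and the labels do not say what they mark. With a replicate block, 4 genes were higher and 13 lower with LPS, where 20.5% and 19.8% of all genes were, against 15.9% and 14.3% without it. With HACA 4 were higher and 2 lower, where 11.4% and 13.8% of all genes were, and 1 (Psap) was lower in LPS+HACA than in control.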
